A study of Mus musculus with 60 samples.

Results

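The phase II conjugation enzymes described here are 64 genes of the 54532 in the count table. They were chosen by symbol alone: UDP-glucuronosyltransferases of families Ugt1, Ugt2 and Ugt3 (21 genes), soluble and kappa-class glutathione S-transferases of classes Gsta, Gstk, Gstm, Gsto, Gstp, Gstt and Gstz (22 genes), and sulfotransferases of families Sult1 to Sult6 (21 genes), with pseudogene symbols left out. Their RNA was counted in 15 tissues taken from C57BL6/J females, 6 weeks old, with no treatment named in the labels, with 4 libraries per tissue and 60 in all. Every mouse had been perfused through the heart with saline holding EDTA. The tissues were liver, kidney, small intestine, colon, lung, heart, female reproductive tract, skin, brain, mesenteric lymph node, inguinal lymph node, spleen, thymus, bone marrow and blood, the last named whole blood in some labels and mononuclear cells in others. The comparison of interest is between tissues, since no allele or agent differed between the groups, and only 1 sex, 1 strain and 1 age were studied. The labels do not say which tissues came from the same mouse.

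Phase II enzymes attach a water-soluble group to drugs, hormones, bilirubin and bile acids, so that these can be exported and excreted. UDP-glucuronosyltransferases sit in the membrane of the endoplasmic reticulum, and those of families Ugt1 and Ugt2 transfer glucuronate from UDP-glucuronate. The family Ugt3 was included by its symbol. Glutathione S-transferases are mostly soluble and join glutathione to electrophiles, while sulfotransferases of the cytosol transfer sulfonate from the donor PAPS to hydroxyl and amino groups. Liver, intestine and kidney are known as the main sites of this chemistry.

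Libraries held between 353605 and 5211133 counts, the lowest in a female reproductive tract library, with a median of 2649668. Levels are given in CPM, the counts scaled by library size and TMM factor, and each ± is the SD of 4 libraries unless SE is named. Reads were primed from the poly(A) tail, so a level reflects the 3′ end of a transcript, and levels of different genes are not compared. Intervals and limits from counts cover counting error only. The summed markers of liver, kidney, small intestine, colon, lung, heart, brain, skin and female reproductive tract were highest in their own tissue, and no list was specific to a lymphoid organ or blood. Summed hepatocyte markers reached 170137 to 193449.9 CPM in liver, with 0 of 10 at 0, and summed kidney tubule markers 20718 to 25918 CPM in kidney. A few libraries stood apart in markers of another tissue. Summed small intestine markers were 704 CPM in liver replicate 4, against 239.9 to 261 CPM in the other 3 liver libraries, and 765 CPM in brain replicate 3, against at most 17.9 CPM in the other 3 brain libraries. Summed hepatocyte markers were 605 CPM in mesenteric lymph node replicate 4, against 58.6 to 167 CPM in the other 3. Summed uterus and ovary markers were 382 CPM in kidney replicate 4, against 64.4 to 78.8 CPM in the other 3 kidney libraries. Summed skeletal muscle markers were 132 CPM in lung replicate 4, against 2.44 to 11.3 CPM in the other 3 lung libraries. In liver replicates 1 to 4, summed skeletal muscle markers were 1.35, 10.1, 202 and 451 CPM, so replicate 3 also stood above replicates 1 and 2. Liver replicate 4 had the lowest Ugt, Gst and Sult sums of its tissue. The Gst sums fell from replicate 1 to 4, at 10993, 10648, 9061 and 7705 CPM, and the Sult sums fell in the same order. The part of these libraries in the results was tested only by leaving libraries out. In bulk samples, fewer cells of a type and less RNA per cell cannot be told apart.

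Conjugation enzymes were above all liver genes. Of the 64, 48 reached a mean of 5 CPM in some tissue, and the highest tissue was liver for 27 of these, kidney for 10, small intestine for 8, and lung, brain and skin for 1 each. Their summed level was 18634, 17706, 15754 and 13861 CPM in the 4 liver libraries, 5087, 4986, 4858 and 4739 CPM in kidney, 4060.0, 3672, 3126 and 4865 CPM in small intestine and 3341, 2788, 3045 and 2932 CPM in colon. Every liver library lay above every library of another tissue, and the spleen, blood and thymus libraries, at 166 to 256 CPM, lay at the bottom. The order between these depends on the TMM factors, which were 0.4095 to 0.4193 in heart and 1.251 to 1.297 in lung. As a mean share of library counts, liver still led, with no library under 0.714%. Colon, at 0.384%, then lay above kidney, at 0.370%, and small intestine, at 0.343%. Heart, at 0.0606%, then lay under lung (0.220%), brain (0.0987%) and skin (0.0894%). The 3 families spread differently. Summed Ugt levels were 3677 ± 188 CPM in liver, 1109.7 ± 24.6 CPM in kidney, 612 ± 58.9 CPM in small intestine and 246 ± 59.7 CPM in colon, and no tissue outside these 4 passed 8.77 CPM. Ugt3a2 alone made up 83.1% of the kidney sum, and Ugt2b34 70.6% of that in small intestine and 82.8% in colon. In liver the leading gene, Ugt2b5, held 23.8%. In lung not 1 read was counted for any of the 21 Ugt rows in the 4 libraries, which allows up to 0.577 CPM per row at this depth. The Ugt1a rows share exons with each other, as do Ugt2a1 and Ugt2a2. Reads of these exons may be in no row, so no such limit holds for those genes and the Ugt sums may lack them. Summed Gst levels reached 9602 ± 1519 CPM in liver but were still 1593 ± 26 CPM in lung, 1401 ± 65 CPM in heart and 183 ± 32 CPM in thymus. The nearness of heart to lung in these sums depends on the TMM factors too. Summed Sult levels were 3210.2 ± 457 CPM in liver, 768 ± 71.3 CPM in kidney, 885 ± 103 CPM in small intestine and 995 ± 180.0 CPM in colon, with 388 ± 8.25 CPM in brain. A tested Gst gene reached 5 CPM in a median of 12 of 15 tissues, a tested Ugt gene in 2 and a tested Sult gene in 2.5.

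**Figure D1:**
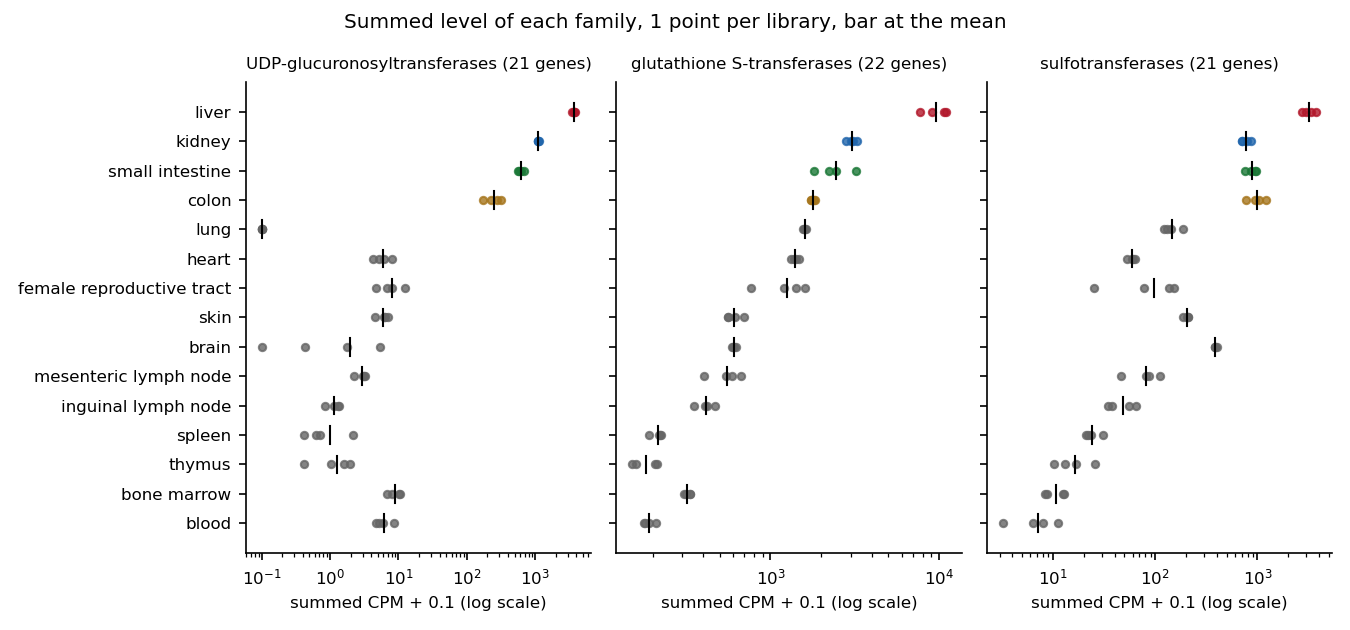
Summed CPM of each enzyme family in every library (x axis, log scale with 0.1 added; 1 point per library, bar at the mean of 4), by tissue down the page. Liver leads in all 3 panels, the Ugt points outside liver, kidney, small intestine and colon lie at or below 12.5 CPM, and the lung Ugt points lie at 0.

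Each tissue was compared with the mean of the other 14 by edgeR's quasi-likelihood test over 18562 genes, and a gene was called at a Benjamini-Hochberg adjusted p below 0.05 with a log2 fold change above 1. Of the 64 genes, 44 passed the filter on low counts. A gene could pass through the tissue where it is high alone, so the counts of calls describe these 44 and not the family. In liver 36 of the 44 were called higher, where 18.4% of all genes were, with a median log2 fold change of 4.86 beside -0.25 over all genes. The count was 23 in kidney (background 21.8%), 27 in small intestine (19.9%) and 22 in colon (17.7%). It was 11 in lung (16.8%), 11 in female reproductive tract (23.1%), 9 in heart (20.7%), 9 in skin (18.4%) and 6 in brain (27.7%). Of these, the shares in female reproductive tract, heart and skin were near the background and that in brain was under it. The heart count rests on the scaling: with library totals it was 4, and the median of all genes moved by -1.26. In the blood-forming and lymphoid tissues the count ran from 1 to 4: 4 in bone marrow (17.6%), 4 in mesenteric lymph node (17.2%), 2 in blood (18.1%), and 1 each in inguinal lymph node (17.1%), spleen (17.8%) and thymus (18.9%). These counts lie under the background of each tissue. A call can rest on few reads, as for Sult2a8, called higher in bone marrow with 4 reads. A total of 20 genes were restricted to a tissue, meaning that they were called higher there, reached 5 CPM and 4 times the next tissue, and had their lowest library above all libraries elsewhere. This is 45.5% of the 44, where 17.2% of all genes were. Liver held 14 of them (31.8% of the 44, background 2.41%): Ugt1a5, Ugt1a6a, Ugt2b1, Ugt2b5, Ugt2b36, Gsta3, Gstm1, Gstm6, Gstt1, Gstz1, Sult2a1, Sult2a2, Sult2a8 and Sult3a1. Kidney held Gsta2, Ugt1a2 and Ugt2b38, small intestine Gsta1 and Sult6b2, and brain Sult4a1.

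**Figure D2:**
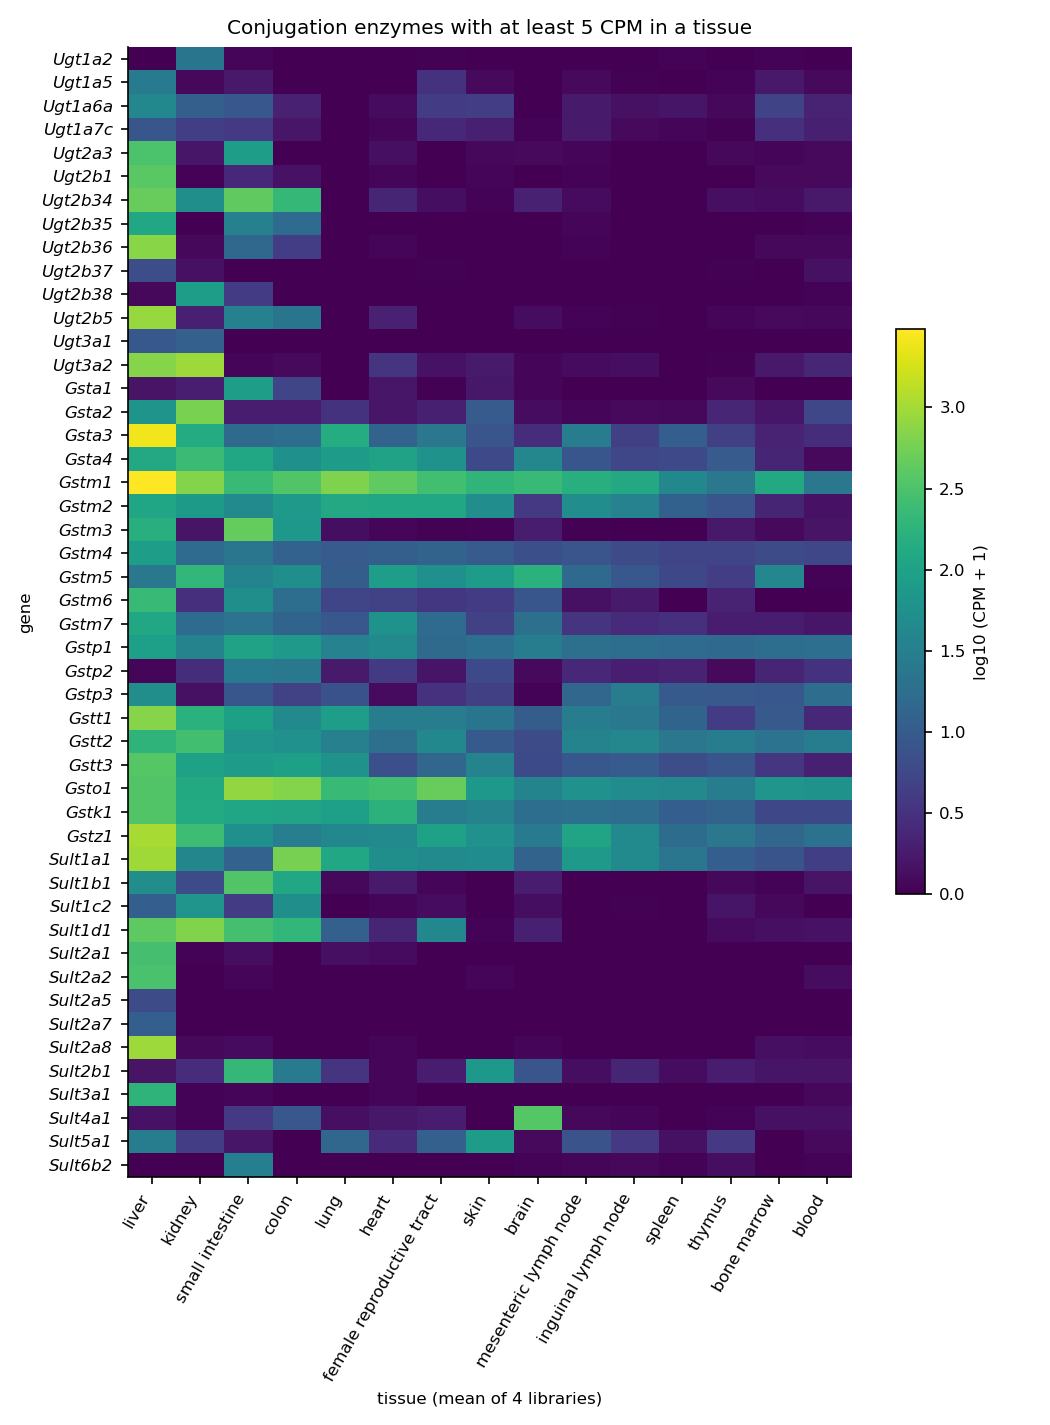
Mean level of the 48 genes that reached 5 CPM in a tissue (rows, by class) in the 15 tissues (columns; colour is log10 of CPM + 1, mean of 4 libraries). The Sult2a and Sult3a1 rows are bright in liver alone, most Gst rows stay bright across many columns, and Sult4a1 is bright in brain.

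The Ugt1a genes are alternative first exons on chromosome 1 (GRCm38 chr1:88055388-88220002 from the first gene start to the last gene end), each spliced to the same last exons. For 8 of the 9 rows every 50-base stretch of the last 500 bases also occurred in another gene, so reads from the shared exons cannot be assigned to 1 isoform, and 6 of the 9 rows failed the filter. The 9 rows summed to 71.4, 89.2, 87.8 and 60.9 CPM in liver, 39.2, 36.4, 31.5 and 33.7 CPM in kidney and 8.31, 13.9, 9.0 and 15.2 CPM in small intestine. The sums of the 3 tissues did not overlap. Reads of the shared exons that no row received are not in these sums, so they do not give the level of the locus. Ugt1a6a, which glucuronidates planar phenols, had 39.1, 49.3, 42.6 and 33.8 CPM in liver and 10.3 ± 0.73 CPM in kidney. Ugt1a5 had 25.6, 30.4, 26.6 and 18.3 CPM in liver, where all 4 libraries stood above 6.23 CPM, the highest value in any other tissue. Ugt1a2 ran the other way, with 0 reads in liver and 24.2, 22, 17.9 and 20.6 CPM in kidney, at least 40.5-fold lower in liver (adjusted p = 7.82e-09, edgeR quasi-likelihood test). Ugt1a1, the enzyme for bilirubin, had 6 reads in all 60 libraries. It shares its last exons with Ugt1a2, Ugt1a5 and Ugt1a6a, so the values, folds and calls given for these genes describe the rows of the count table and not the level of an isoform. Ugt1a7c, whose own 3′ end is unique, had 7.41 ± 3.94 CPM in liver and did not pass the filter, and Ugt1a6b, Ugt1a8, Ugt1a9 and Ugt1a10 had 6, 6, 9 and 1 reads in all.

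The Ugt2 genes, whose enzymes glucuronidate steroids, bile acids and drugs, lie in 1 cluster on chromosome 5, followed by Sult1b1, Sult1d1 and Sult1e1 (GRCm38 chr5:86889767-87591594). Neighbours differed in their tissue. Ugt2b1 had 396, 394, 422 and 351 CPM in liver, 1 read in the 4 kidney libraries and 1.53 ± 0.342 CPM in small intestine. Ugt2b36 had 772, 705, 766 and 633 CPM in liver and 14 ± 3.51 CPM in small intestine. Both were higher in every liver library than in any other library. Ugt2b34, at the start of the cluster, was shared with the gut: 491, 478, 422 and 494 CPM in liver, 54.2, 51.1, 59.5 and 46.8 CPM in kidney, 438, 423, 402 and 466 CPM in small intestine and 259, 157, 217 and 183 CPM in colon. Liver and small intestine overlapped (log2 fold change 0.17 ± 0.11 SE, adjusted p = 0.156), while liver lay above kidney by 3.19 ± 0.10 SE. Ugt2b35 had 121 ± 23 CPM in liver, no read in kidney, 31.4 ± 1.21 CPM in small intestine and 15.3 ± 6.25 CPM in colon. Ugt2a3 had 358, 323, 284 and 271 CPM in liver, 7 reads in kidney, 108, 73.6, 70.2 and 89.6 CPM in small intestine and none in colon. Ugt2b5 and Ugt2b38 took opposite sides of liver and kidney. Ugt2b5 had 881, 820.5, 924 and 876 CPM in liver and 1.7, 0.35, 1.35 and 0.748 CPM in kidney (log2 fold change 9.66 ± 0.17 SE, adjusted p = 1.81e-19). Ugt2b38 had 1 read in the 4 liver libraries and 61.4, 99.4, 96.4 and 90.9 CPM in kidney, a kidney excess of 498-fold (95% counting interval 89.1 to 19681). No library of 1 tissue reached those of the other for either gene. In small intestine both were seen at lower levels, Ugt2b5 at 20.3, 18.7, 29.9 and 63 CPM and Ugt2b38 at 0.462, 0, 2.88 and 8.69 CPM. The promoters of this pair are shown because the genes differ in tissue while the windows align at 84.2% of 310 columns (RefSeq, GRCm38.p6, 250 bases before to 50 after the start, 5′ to 3′). Those of Ugt1a5 and Ugt1a2, which also differ in tissue, aligned at only 50.1% of 353 columns and are not shown. Ugt2b5 is at chr5:87140291-87140590, minus strand, and Ugt2b38 at chr5:87424154-87424453, minus strand. Capitals mark bases with no identical partner in the global alignment. The 50 bases before the start of Ugt2b5 held 48 identical bases.

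Ugt2b5: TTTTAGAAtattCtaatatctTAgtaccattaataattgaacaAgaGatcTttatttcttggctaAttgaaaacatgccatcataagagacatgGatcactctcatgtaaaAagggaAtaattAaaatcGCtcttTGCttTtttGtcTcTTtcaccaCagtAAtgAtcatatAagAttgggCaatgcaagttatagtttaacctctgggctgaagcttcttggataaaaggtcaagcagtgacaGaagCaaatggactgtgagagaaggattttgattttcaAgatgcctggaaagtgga
Ugt2b38: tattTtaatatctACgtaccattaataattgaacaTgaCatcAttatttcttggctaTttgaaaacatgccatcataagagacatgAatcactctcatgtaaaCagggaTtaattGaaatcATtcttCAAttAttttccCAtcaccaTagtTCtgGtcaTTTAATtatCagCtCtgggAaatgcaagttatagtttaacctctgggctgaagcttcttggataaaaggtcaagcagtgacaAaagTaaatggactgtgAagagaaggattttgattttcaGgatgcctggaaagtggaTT

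Ugt2b37 reached 5.74 ± 3.39 CPM in liver and did not pass the filter. Ugt2a1, known from the nose, and Ugt2a2 had no read in any library, and their exons overlap each other. Of the sulfotransferases at the end of the cluster, Sult1b1 was highest in small intestine, Sult1d1 in kidney, and Sult1e1, which inactivates oestrogens, had 29 reads in all. Ugt3a2, whose human counterpart uses other UDP-sugars than UDP-glucuronate, was a liver and kidney gene: 747, 720.5, 716 and 616 CPM in liver and 948, 906, 940.1 and 892 CPM in kidney. The kidney libraries lay above the liver ones, but the log2 fold change of -0.36 ± 0.08 SE (adjusted p = 4.85e-04) did not reach the fold threshold. Small intestine had 1 read, and no other tissue passed 2.36 CPM on average. Ugt3a1 followed at 8.08 ± 3.12 CPM in liver and 10.6 ± 3.17 CPM in kidney.

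**Figure D3:**
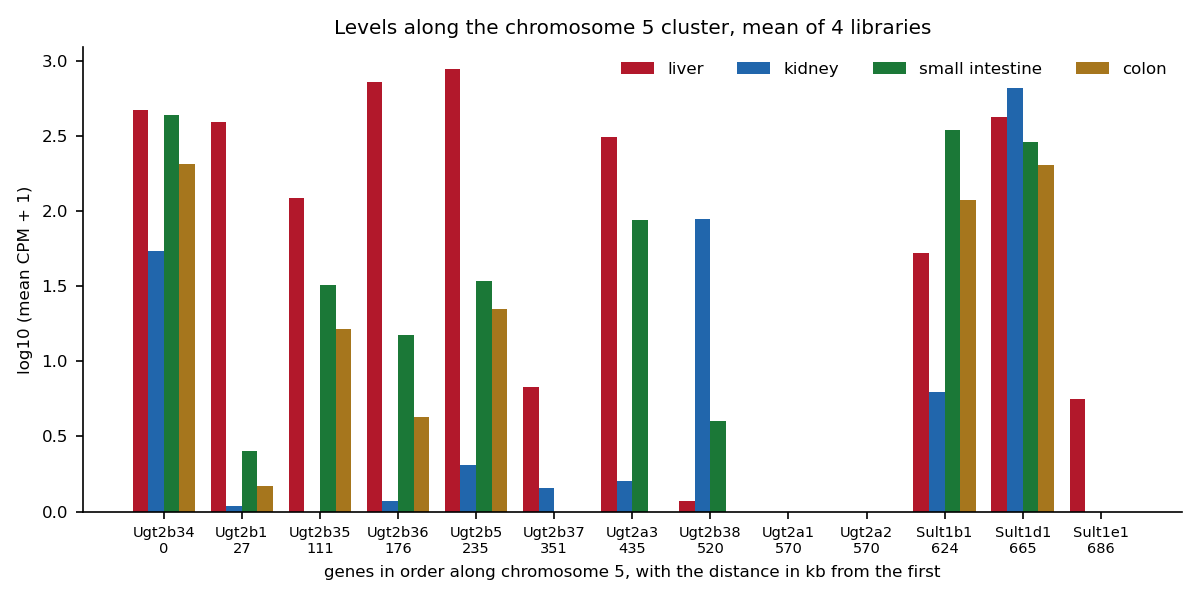
Mean CPM of 4 libraries (y axis, log10 of CPM + 1) for the genes of the chromosome 5 cluster in their order along the chromosome, with the distance in kb from the first gene under each name; bars are liver, kidney, small intestine and colon. Liver bars lead at most Ugt2 genes, the kidney bar leads at Ugt2b38, the Ugt2a1 and Ugt2a2 places are empty, and Sult1b1 and Sult1d1 at the right end are led by small intestine and kidney.

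Of the alpha-class glutathione S-transferases, Gsta3, which conjugates the epoxide of aflatoxin in mice, had 3088, 2859, 2305 and 1948 CPM in liver, 138, 154, 139 and 137 CPM in lung and 161, 139, 137 and 113 CPM in kidney. Liver exceeded lung 17.9 times by the means, and liver libraries stood above the mean of the other 14 tissues by 7.92 ± 0.13 SE on the log2 scale (adjusted p = 2.25e-50). Gsta4, which removes the lipid peroxidation product 4-hydroxynonenal, was broader, with 126 ± 31.3 CPM in liver, 238 ± 53.2 CPM in kidney, 118 ± 52.6 CPM in small intestine and 101 ± 9.68 CPM in heart. Gsta1 and Gsta2 are close copies on chromosome 9 that divided intestine and kidney between them. Gsta2 had 88.2, 81.2, 51.2 and 25.7 CPM in liver, 690.4, 646, 553 and 525 CPM in kidney and 0.923, 0.872, 1.08 and 0.543 CPM in small intestine. Gsta1 had 3 reads in the 4 liver libraries, 1.7, 0.35, 0 and 1.87 CPM in kidney, 65.1, 59.7, 54.3 and 162 CPM in small intestine and 4.34 ± 1.63 CPM in colon. Kidney over small intestine, the log2 fold change was 9.32 ± 0.20 SE for Gsta2 and -6.40 ± 0.52 SE for Gsta1 (adjusted p = 6.81e-18 and 1.92e-09). In their last 500 bases, 90.0% of the 50-base stretches of Gsta1 and 51% of those of Gsta2 also occurred in another gene, so part of their reads may have been split or dropped. With both summed, kidney held 692, 646, 553 and 527 CPM and small intestine 66, 60.6, 55.4 and 163 CPM. Small intestine replicate 4 stood apart for Gsta1, at 162 CPM. A further copy, Gm10639, had 417 reads in kidney and 0 in small intestine, while Gm3776 had 4 in kidney and 63 in small intestine. The promoters of the pair align at 75.3% of 316 columns and are shown because these copies also differ in tissue, with Gsta1 at chr9:78230419-78230718, plus strand, and Gsta2 at chr9:78347096-78347395, minus strand (RefSeq, GRCm38.p6). Capitals again mark bases with no identical partner. The 50 bases before the start of Gsta1 held 42 identical bases.

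Gsta1: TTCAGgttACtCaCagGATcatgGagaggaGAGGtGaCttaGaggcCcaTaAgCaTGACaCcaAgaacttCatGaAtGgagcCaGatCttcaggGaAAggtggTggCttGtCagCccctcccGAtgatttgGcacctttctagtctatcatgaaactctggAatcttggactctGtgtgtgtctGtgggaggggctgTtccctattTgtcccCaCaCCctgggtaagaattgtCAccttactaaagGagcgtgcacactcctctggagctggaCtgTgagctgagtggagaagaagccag
Gsta2: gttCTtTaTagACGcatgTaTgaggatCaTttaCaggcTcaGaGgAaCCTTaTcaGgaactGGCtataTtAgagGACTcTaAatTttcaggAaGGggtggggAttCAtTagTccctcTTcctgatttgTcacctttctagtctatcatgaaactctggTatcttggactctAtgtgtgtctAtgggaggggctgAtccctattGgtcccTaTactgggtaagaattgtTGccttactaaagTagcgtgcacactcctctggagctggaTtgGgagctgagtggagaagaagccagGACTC

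**Figure D4:**
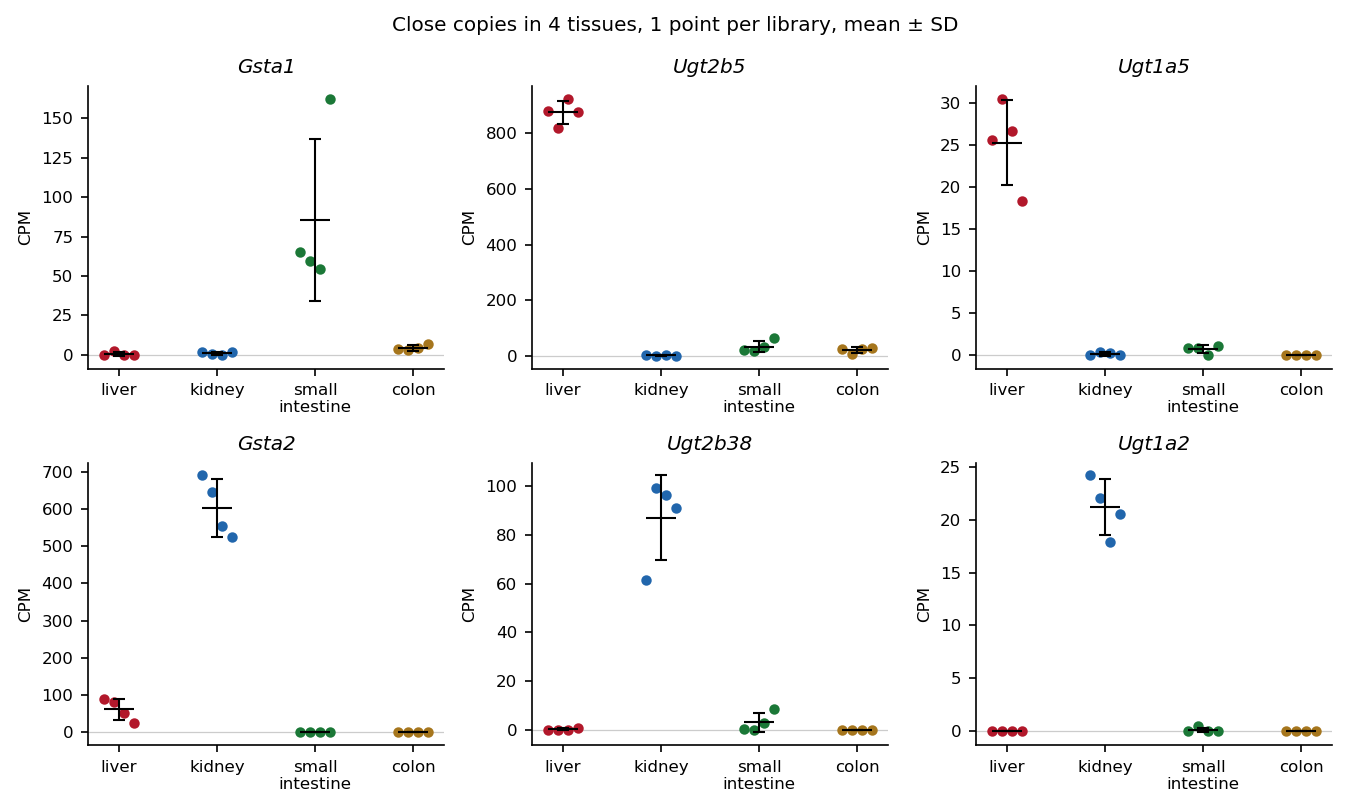
CPM (y axis, linear, own scale in each panel) of Gsta1, Gsta2, Ugt2b5, Ugt2b38, Ugt1a5 and Ugt1a2 in liver, kidney, small intestine and colon; 1 point per library, with the mean and SD of 4. In each column of panels 1 gene is high where the other is near 0: Gsta2 at 525 to 690.4 CPM in kidney and Gsta1 at 54.3 to 162 CPM in small intestine.

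The mu-class genes lie side by side on chromosome 3 (GRCm38 chr3:107895821-108044894) and showed several patterns. Gstm1 was present in every tissue, at 3365, 3397, 2826 and 2489.7 CPM in liver, 679 ± 17.3 CPM in kidney, 637 ± 38.7 CPM in lung and 428 ± 25.2 CPM in heart. Its lowest tissue was blood, at 22.7 ± 2.99 CPM. Gstm3 belonged to the gut and liver, with 199, 188, 132 and 99.8 CPM in liver, 6 reads in kidney, 399, 426, 252 and 716 CPM in small intestine and 83.9, 69, 69.7 and 64 CPM in colon. Small intestine lay above liver (log2 fold change, liver over small intestine, -1.49 ± 0.26 SE, adjusted p = 8.71e-05) and its libraries spread from 252 to 716 CPM. Gstm6 shared the liver and gut pattern at 226 ± 53.7 CPM in liver, 1.92 ± 0.697 CPM in kidney and 52.7 ± 17.7 CPM in small intestine. Gstm5 was low in liver, at 20.2, 22.5, 25.3 and 27.9 CPM, and high in kidney, at 182, 188, 212 and 212 CPM, and in brain, at 168, 164, 165 and 176 CPM. The liver and kidney libraries did not overlap (log2 fold change -3.01 ± 0.12 SE, adjusted p = 6.08e-14). Gstm2 had similar means in lung, female reproductive tract, heart and liver, at 124 ± 20.4, 122 ± 25.3, 116 ± 10.8 and 113 ± 22.2 CPM, and these libraries overlapped. Gstm4 and Gstm7 were highest in liver, at 85.6 ± 12.7 CPM and 119 ± 18 CPM.

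The pi-class gene Gstp1 had 99.7, 103, 102 and 63.9 CPM in liver, 97.4, 102, 86.4 and 116 CPM in small intestine and 72.8 ± 9.14 CPM in colon, and the difference between liver and small intestine was not called (log2 fold change -0.07 ± 0.15 SE, adjusted p = 0.698). Gstp2, whose 3′ end is largely shared with Gstp1, had 1 read in liver, 25.6 ± 10.9 CPM in small intestine and 24.1 ± 4.03 CPM in colon. Gstp3 had 50.9 ± 16.4 CPM in liver and 29.2 ± 6.26 CPM in inguinal lymph node. In their last 500 bases, 75.2% of the 50-base stretches of Gstp1 and 88.9% of those of Gstp2 also occurred in another gene. Part of their reads may have been split or dropped, so the split between these rows is uncertain. With Gstp1, Gstp2 and Gstp3 summed, liver held 143 ± 33.7 CPM and small intestine 134 ± 23.1 CPM. Among theta-class genes, Gstt1, known for conjugating small halogenated solvents, had 775, 723, 730.3 and 607 CPM in liver against 153, 176, 172 and 154 CPM in kidney, with no overlap. Gstt3 had 366 ± 101 CPM in liver and 95.6 ± 11.3 CPM in kidney. Gstt2 had 183 ± 25.1 CPM in liver and 262 ± 30.1 CPM in kidney, and its log2 fold change of -0.48 ± 0.10 SE did not reach the fold threshold. Gstt4 had 16 reads in all libraries. Gstz1, the maleylacetoacetate isomerase of tyrosine breakdown, had 1143, 1123, 1014 and 885 CPM in liver and 248, 248, 249 and 243 CPM in kidney. In mesenteric lymph node it had 46.9, 108, 113 and 155 CPM, and the summed adipocyte markers in the same libraries were 907, 2526, 3748 and 6905 CPM; their part in the level was not tested. Gstk1, the class of mitochondria and peroxisomes, had 340.2 ± 43 CPM in liver and 171 ± 22 CPM in heart. Gsto1, which reduces dehydroascorbate and glutathionylated proteins, had 334, 349, 359 and 312 CPM in liver, 945, 750.4, 694 and 893 CPM in small intestine and 717, 700.4, 652 and 699 CPM in colon. Every library of both gut tissues lay above every liver library. Gsto2 stayed at or under 3.85 CPM on average and was not tested.

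Sult1a1, the main phenol sulfotransferase, separated the gut tissues. It had 1095, 1005, 839 and 941 CPM in liver, and 12.9, 13.1, 9.0 and 10.3 CPM in small intestine against 729.8, 452, 601 and 573 CPM in colon (log2 fold change, small intestine over colon, -5.83 ± 0.18 SE, adjusted p = 3.00e-14). Every liver and colon library stood above every small intestine library. Sult1c2 had the same direction in the gut, with 64.4 ± 8.06 CPM in kidney and 1.38, 3.05, 3.96 and 3.8 CPM in small intestine against 65.3, 42.2, 58.8 and 43 CPM in colon. Sult1b1, which sulfates thyroid hormone and phenols, ran the opposite way in the gut, with 51.2 ± 9.02 CPM in liver, 5.27 ± 1.47 CPM in kidney and 391, 333, 291 and 364 CPM in small intestine against 125, 123, 103 and 119 CPM in colon. All 11 Sult1b1 reads of brain lay in replicate 3, the brain library with small intestine markers. Sult1d1, which acts on catecholamines in mice, had 466, 483, 414 and 315 CPM in liver, 599, 669.9, 595 and 747 CPM in kidney and 295, 304, 265 and 274 CPM in small intestine. The kidney libraries lay above those of liver, but the difference of -0.60 ± 0.11 SE missed the fold threshold. Sult1c1 had 2 reads in all.

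The Sult2a genes, hydroxysteroid and bile acid sulfotransferases on chromosome 7, were liver genes. Sult2a8 had 1009, 914, 999 and 809.6 CPM in liver, and its next tissue, bone marrow, averaged 0.401 CPM. Sult2a1 had 438, 302, 205 and 181 CPM and Sult2a2 481, 341, 240.1 and 152 CPM in liver, where the 4 libraries of each gene differed more from each other than those of Sult2a8. Against kidney, the liver level of Sult2a1 was higher by 3232-fold (95% counting interval 579 to 127747), that of Sult2a8 by 5345-fold (95% counting interval 1479 to 44144) and that of Sult2a2 was at least 1164-fold higher, as kidney had 1, 2 and 0 reads. Sult2a3, Sult2a5 and Sult2a7 had 27, 30 and 58 reads over all libraries, most of them in liver, and Sult2a4 and Sult2a6 had none. The 3′ ends of Sult2a2 and Sult2a1 match each other and those of Sult2a4 and Sult2a5 in part, and that of Sult2a1 also matches Sult2a6. The shared stretches make up 57.6% and 13.1% of the 50-base stretches of Sult2a2 and Sult2a1, so the split between these rows is uncertain. All mice were female, in which hepatic Sult2a1 and Sult2a2 are known to be higher than in male mice. Sult2b1, the cholesterol sulfotransferase of skin, had 3 reads in liver, 262, 185, 160.5 and 217 CPM in small intestine, 22.9, 47.4, 21 and 16.2 CPM in colon and 74.1, 70.6, 66.7 and 75.2 CPM in skin. Small intestine stood above skin in every library. Sult3a1, which sulfonates amines and is also a female-predominant liver enzyme in mice, had 137, 204, 142 and 254 CPM in liver and at most 2 reads in the 4 libraries of any other tissue. Its neighbour Sult3a2 had 24 reads, all in liver. Sult4a1, a sulfotransferase of neurons with no settled substrate, had 359.7, 362, 363 and 379 CPM in brain and 7.91 ± 2.44 CPM in colon; brain was 46.2 times colon by the means. Summed neuron and glia markers were 189, 220.4, 165 and 159 CPM in the same colon libraries, and their part in the colon level was not tested. Sult5a1 was highest in skin, at 76, 106, 75.2 and 71.9 CPM, and had 28.5 ± 3.76 CPM in liver. Sult6b2 had 5.54, 19.2, 15.5 and 83.1 CPM in small intestine, with replicate 4 above the other 3 together, and no other tissue passed 0.35 CPM. Sult6b1 had 71 reads in all.

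Liver and kidney were set against each other on their own 8 libraries, in which 39 of the 64 genes passed the filter. Liver was higher for 28 (background 15.3% of all genes tested) and lower for 5 (background 21.8%), and 6 were not called. The median log2 fold change was 2.52 for the 39 and -0.05 for all genes. Besides the Sult2a genes, the liver excess was wide for Ugt2b36, at 4118-fold (95% counting interval 1139 to 34016), Ugt2b1, at 4469.8-fold (95% counting interval 801 to 176626), Sult3a1, at 2080.5-fold (95% counting interval 373 to 82252), and Ugt2b35, at least 459.7-fold. The 5 genes lower in liver were Ugt2b38, Ugt1a2, Gsta2 (-3.25 ± 0.21 SE, adjusted p = 7.54e-11), Gstm5 and Sult1c2 (-2.63 ± 0.20 SE, adjusted p = 7.83e-10). They come from 5 different subfamilies, and for each of them all 4 kidney libraries stood above all 4 liver libraries. This count depends on the scaling of the libraries. TMM scaled the liver libraries by factors of 0.492 to 0.516, and with library totals the median of all genes moved to -0.67, and 8 genes were then called lower in liver and 25 higher, with Gstk1, Gsto1 and Gstp1 no longer called.

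**Figure D5:**
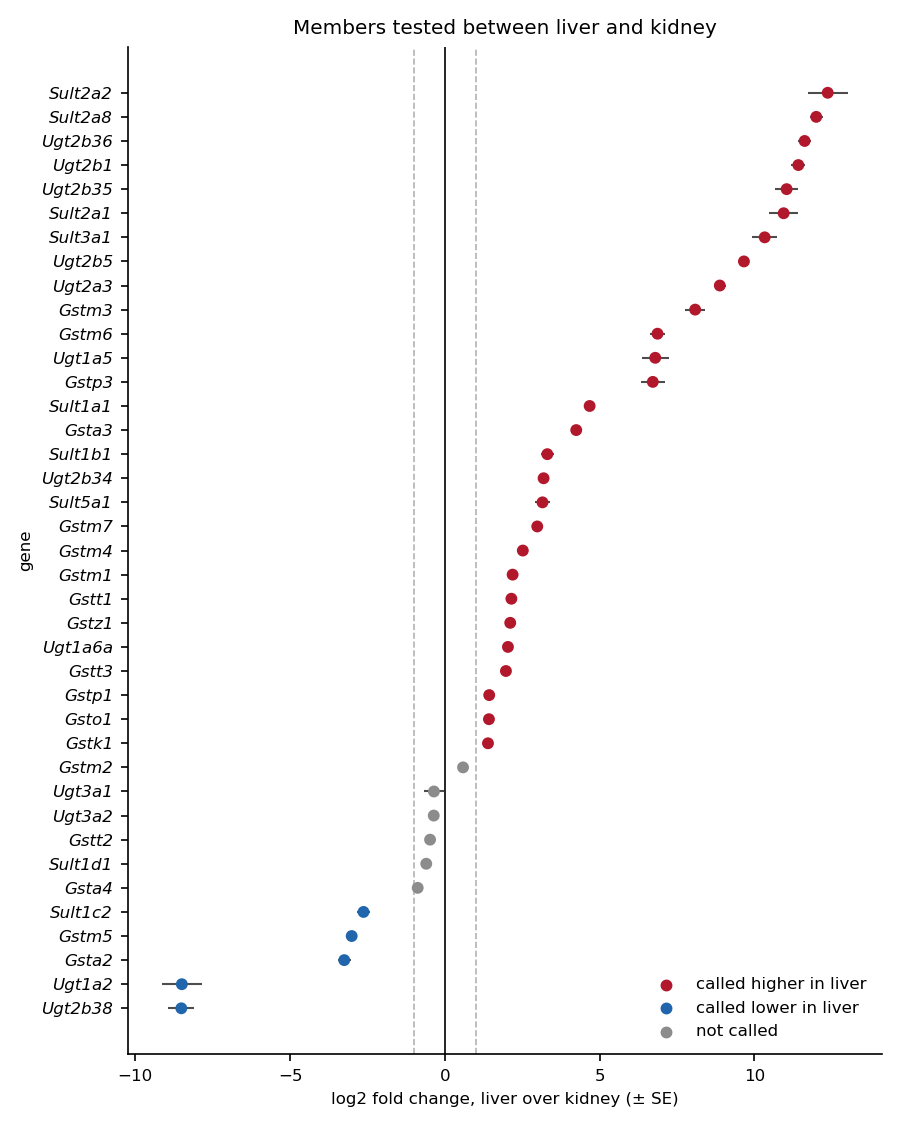
Log2 fold change of liver over kidney with its SE (x axis) for the 39 genes tested in both tissues (y axis, sorted); red points were called higher in liver, blue points lower in liver and grey points were not called, and dashed lines mark a log2 fold change of 1 in either direction. Ugt2b38, Ugt1a2, Gsta2, Gstm5 and Sult1c2 are the 5 blue points. Where kidney or liver has 3 reads or fewer, the fitted value rests on the prior count and the fold in the text is the one to read.

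Between liver and small intestine 39 genes were tested, with 27 called higher in liver (background 20.2%), 7 lower (24.2%) and 5 not called. The liver side held Ugt3a2, at 6369.5-fold (95% counting interval 1143 to 251644), Sult1a1 at a log2 fold change of 6.47 ± 0.16 SE, Ugt2b1 at 7.97 ± 0.18 SE and Gsta3 at 7.5 ± 0.22 SE. With library totals Gstk1, Gstm2 and Gstt2 were no longer called. The 7 genes lower in liver were Gsta1, Gstm3, Gsto1, Gstp2, Sult1b1, Sult2b1 and Sult6b2. Sult2b1 was lower in liver by 387-fold (95% counting interval 132 to 1876), Gstp2 by 139-fold (95% counting interval 24.8 to 5532) and Gsta1 by 153-fold (95% counting interval 52.2 to 744). The Gstp2 fold describes its row of the count table, since its 3′ end is largely shared with Gstp1. With Gsta1 and Gsta2 summed, the log2 fold change was -0.40 and was not called. The Gsta1 reads in liver all lay in replicate 2, while the small intestine markers stood out in replicate 4. For Sult6b2 the bound is at least 53-fold, as liver had no read.

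Between kidney and small intestine 36 genes were tested. Kidney was higher for 13 (background 20.9%) and lower for 15 (20.7%), and Sult1d1 lost its call with library totals. The kidney side held Ugt3a2, at 8378-fold (95% counting interval 1503 to 330929), Gsta2, Ugt1a2, Ugt2b38 (4.93 ± 0.37 SE), Sult1c2 (4.34 ± 0.21 SE) and Gstm5 (2.43 ± 0.12 SE). The small intestine side held Gstm3 (-9.63 ± 0.42 SE), Sult2b1 (-6.86 ± 0.22 SE), Ugt2a3 (-7.03 ± 0.27 SE), Sult1b1 (-6.04 ± 0.16 SE) and Ugt2b35, at least 119-fold higher in small intestine.

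Small intestine and colon had the fewest calls of the 4 pairs. Over all genes the shares called were also the lowest in this pair. Colon libraries were small, at 750212 to 951914 counts, against 2072584 to 3035803 in small intestine, and the part of depth in the calls was not tested. Of 29 genes tested, 7 were higher in small intestine (background 13.5%), 2 were lower (12.2%) and 20 were not called. Higher in small intestine were Ugt2a3, at least 123-fold, Gsta1 (4.13 ± 0.47 SE), Sult2b1 (2.82 ± 0.23 SE), Gstm3 (2.51 ± 0.24 SE), Ugt2b36 (1.87 ± 0.39 SE), Gstm6 (1.48 ± 0.27 SE) and Sult1b1 (1.41 ± 0.12 SE). The 2 that were lower were Sult1a1 and Sult1c2. Several genes fell just short of the fold threshold, such as Gsta4 at 0.97 ± 0.24 SE, Gstt1 at 0.96 ± 0.23 SE and Ugt2b34 at 0.95 ± 0.13 SE. The count of genes higher in small intestine was 6 to 12 when 1 library was left out, with 11 without colon replicate 1, 11 without replicate 3 and 12 without replicate 4. Without small intestine replicate 4, 4 genes in place of 2 were lower in small intestine. That library was the highest of its 4 for Gsta1, Gsta4, Gstm3, Gstt1, Ugt2b5, Ugt2b38 and Sult6b2, while its summed small intestine markers, at 59250.0 CPM, were the lowest of the 4.

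Outside the liver, kidney and gut, glutathione S-transferases and some sulfotransferases were measured in several tissues. In heart, Gstm1, Gsto1 and Gstk1 had 428 ± 25.2, 264 ± 30.3 and 171 ± 22 CPM. In lung Gstm1 had 618, 686, 596 and 646 CPM, and Sult1a1 had 101, 105, 105 and 161 CPM, so that replicate 4 stood above the other 3. In the female reproductive tract Gsto1 varied widely, at 638, 466, 185 and 562 CPM, and so did Sult1d1, at 19.1, 58, 8.31 and 80.8 CPM; summed keratinocyte markers in these libraries were 1755, 788, 1123 and 39.1 CPM and summed adipocyte markers 2096, 3981, 1669.6 and 2740.3 CPM, and the part of either in the spread was not tested. Bone marrow had 128 ± 7.8 CPM of Gstm1, blood 59.5 ± 14.8 CPM of Gsto1 and thymus 29.2 ± 4.02 CPM of Gstt2.

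Genes that supply the donors were counted from lists written with earlier results of these data known, beside all genes, whose median log2 fold change was -0.25 in liver, 0.03 in kidney and 0.01 in small intestine. Of all genes, 18.4% were called higher and 16.7% lower in liver, 21.8% and 9.52% in kidney, and 19.9% and 8.5% in small intestine. For UDP-glucuronate supply 4 of 4 genes were called higher in liver, 1 in kidney and 2 in small intestine, with medians of 2.81, 0.80 and 1.17. Slc35d1, which carries UDP-glucuronate into the endoplasmic reticulum, had 193 ± 15 CPM in liver (log2 fold change 3.05 ± 0.11 SE). Ugdh, the enzyme that makes UDP-glucuronate, had 163 ± 33.1 CPM in liver, 251 ± 57.3 CPM in small intestine and 403 ± 106 CPM in colon, its highest tissue. For sulfate donor supply 3 of 7 were higher and 1 lower in liver, 5 were higher in kidney and 4 in small intestine (medians 0.58, 2.98 and 1.60). The PAPS synthases parted: Papss2 had 448 ± 82.7 CPM in liver and 403 ± 15.9 CPM in kidney, while Papss1 had 14.8 ± 3.75 CPM in liver and was highest in colon, at 117 ± 24.9 CPM. The sulfate carriers parted too, with Slc26a1 at 133 ± 18.6 CPM in liver and 63.5 ± 1.74 CPM in kidney, and Slc13a1, which takes up filtered sulfate, at 303 ± 23.9 CPM in kidney and 91.2 ± 6.55 CPM in small intestine. For glutathione synthesis and recycling 5 of 7 were higher in each of liver, kidney and small intestine (medians 1.96, 2.41 and 1.41). Gclc and Gclm, the subunits of the enzyme for the first step, had 328 ± 34.5 CPM and 395 ± 19.7 CPM in liver, 263 ± 51.3 CPM and 362 ± 19.7 CPM in kidney, and 45.1 ± 9.7 CPM and 152 ± 23.3 CPM in small intestine. Cth, which makes cysteine, had 414 ± 111 CPM in liver.

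A list of 7 genes held Mgst1, Mgst2, Mgst3, the soluble enzyme Hpgds, Ptges, Gstcd and Alox5ap, not all of them glutathione transferases. In liver 1 was higher and 4 were lower, namely Mgst2, Hpgds, Ptges and Alox5ap. In kidney 2 were higher and 3 lower, and in small intestine 3 were higher and 1, Alox5ap, was lower. The medians were -1.15 in liver, 0.19 in kidney and 0.84 in small intestine. Mgst1 was the liver gene, at 4293 ± 530.4 CPM, while Mgst2 had 1.74 ± 1.66 CPM in liver, 1.68 ± 0.693 CPM in kidney and 342 ± 44.2 CPM in small intestine. Of 14 other conjugating enzymes tested, 13 were higher in liver, 11 in kidney and 6 in small intestine, where 3 were lower (medians 3.43, 3.81 and 0.12). Baat, which joins taurine or glycine to bile acids, had 364 ± 51.7 CPM in liver and 6.56 ± 1.02 CPM in kidney. Glyat, which joins glycine to benzoate, had 379 ± 11.9 CPM in liver and 345 ± 25.7 CPM in kidney, and Acsm2, whose family activates such acids, 2.58 ± 1.42 CPM in liver and 1316 ± 30.9 CPM in kidney. Of 9 genes of conjugate breakdown, 4 were higher and 2 lower in liver, 6 were higher in kidney and 4 in small intestine (medians -0.03, 1.77 and 0.79). Ggt1, which starts the breakdown of glutathione conjugates, had 2.1 ± 1.33 CPM in liver, 488 ± 29.7 CPM in kidney and 405 ± 106 CPM in small intestine, and Dpep1 had 1.91 ± 0.308 CPM, 146 ± 8.83 CPM and 419 ± 70.5 CPM in the same tissues. Kyat1, a beta-lyase of cysteine conjugates, had 200.0 ± 24.7 CPM in liver.

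Of 15 regulators of conjugation genes, 10 were higher in liver, 5 in kidney and 10 in small intestine, and 1, Maff, was lower in kidney (medians 2.89, 0.67 and 1.37). Nr1i3 (the receptor CAR) had 27.3 ± 10.6 CPM in liver and 2.08 ± 0.532 CPM in small intestine, and Nr1i2 (PXR) 89.2 ± 23.6 CPM in liver, 6.4 ± 0.689 CPM in kidney and 64.8 ± 8.17 CPM in small intestine. Hnf4a, a factor of liver, kidney and gut epithelium, had 603 ± 90.5 CPM, 413 ± 17.5 CPM and 485 ± 40.8 CPM in these tissues, and Nfe2l2 (NRF2), the antioxidant response factor, 139 ± 25.4 CPM, 141 ± 8.65 CPM and 231 ± 19.3 CPM. Nfe2l2 was called higher in small intestine (log2 fold change 1.37) but not in liver (0.59) or kidney (0.61).

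Promoter windows were on hand for 56 of the 64 genes, with 67 entries (RefSeq, GRCm38.p6). Each motif was searched on both strands. The HNF1 half-site GTTAAT occurred in 14 of them (20.9%) and in 7.10% of all 32851 windows of the same length. The antioxidant response core TGACNNNGC occurred in 4.48% and 12.4%, the CEBP core TTGCNNAA in 19.4% and 10.8%. The HNF4 core CAAAGTCCA occurred in 1.49% and 0.475%, the CDX core TTTATNG in 10.4% and 10.9%. The TATA box TATAAA, which the CDX core can overlap, occurred in 22.4% and 13.6%. A match describes letters in a window and shows no binding, and near-identical copies count separately. Of the 14 genes with a GTTAAT match, 7 did not reach 5 CPM in any tissue: Sult2a3, Sult2a4, Sult2a6, Sult3a2, Ugt1a1, Ugt1a9 and Ugt1a10, of which Sult2a4 and Sult2a6 had no read. The matches of the other 7 are given with 12 bases on either side, on the strand of the gene, with the match or its reverse complement in capitals. Liver was the highest tissue for Gsta3, Sult1a1, Sult2a5, Ugt1a6a and Ugt2a3, and kidney for Sult1d1 and Ugt3a1.

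Gsta3 (chr1:21240424-21240453, plus strand): aggaagaaacatATTAACcaactctttagc
Sult1a1 (chr7:126676633-126676662, minus strand): atgccagagtggGTTAATtagaaaagtccc
Sult1d1 (chr5:87569068-87569097, minus strand): gtccactgatcaGTTAATaattgactaaga
Sult2a5 (chr7:13623738-13623767, plus strand): tagacattttaaATTAACttacatttctat
Sult2a5 (chr7:13623927-13623956, plus strand): acataagagaatGTTAATgattttttacct
Ugt1a6a (chr1:88134747-88134776, plus strand): ccctcagcagtgATTAACaaacagaacaaa
Ugt2a3 (chr5:87337232-87337261, minus strand): gtaagtttaaaaGTTAATagttaatttctt
Ugt2a3 (chr5:87337225-87337254, minus strand): taaaagttaataGTTAATttctttcttatc
Ugt3a1 (chr15:9279694-9279723, plus strand): gacaagttaaaaATTAACtcttcacctgtt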

How the data were processed

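The authors deposited raw counts per gene, made per the submitters' processing notes with FastQC, STAR and featureCounts on mm10, with no versions given. Per the labels' protocols, libraries were primed from the poly(A) tail. Whether counting used strand is not stated in the sources read for this work, and sense and antisense reads cannot be told apart, which touches the Ugt1a rows, Gstm5, Gstz1, Sult1a1, Sult2b1 and Sult6b1.

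CPM used TMM factors (edgeR 4.0.16 in R 4.3.3). Genes were tested by edgeR (quasi-likelihood F test, p-values adjusted by Benjamini-Hochberg) over all genes passing filterByExpr (minimum count 10, minimum total 15), with all 60 libraries for a tissue against the other 14, and the 8 libraries of both tissues for a pair. An SE is the log2 fold change divided by the square root of F. Both fits were also run on simulated counts, but no result of that run is given here and no call rests on it. DESeq2 1.42.0 served as an alternative.

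The members, gene lists and tests were chosen with earlier results of these data known, and the promoter pairs after their levels were seen. Genes were named by a rule: a mean of 50 CPM or more in a tissue, the highest of each class, restricted or unread genes, up to 8 per direction in each pair and up to 4 per list. Within a list, the genes named were not always those with the largest change. Anpep (log2 fold change 7.23 in small intestine) and Nr1h4 (7.51 in liver) were left out. Where a tissue had no read, a fold is a bound at 3 counts over its 4 libraries, and with 1 to 3 reads it is given with a counting interval. The labels do not say which libraries share a mouse, so p-values measure the spread between these libraries. Promoters were aligned with biopython 1.88.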

Additional observations from a re-analysis of the deposited data

Results flagged for a closer look

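Among 120 levels of at least 50 CPM, each over 4 libraries, 8 had 1 library far from the other 3, by Dixon's 95% criterion on the gap over the whole range. Chance alone flags about 1 in 20 such groups.

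Gsta1 in small intestine replicate 4 was highest at 162 CPM, against 54.3 to 65.1 CPM in the other 3 libraries. Gstp1 in liver replicate 4 was lowest at 63.9 CPM, against 99.7 to 103 CPM. Both libraries stand apart in other ways given in the report.

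In lung, Gsta3 was highest in replicate 2 at 154 CPM (137 to 139 CPM in the others), Gstt1 in replicate 3 at 95.4 CPM (80.4 to 82.7 CPM) and Sult1a1 in replicate 4 at 161 CPM (101 to 105 CPM). In kidney, Gstm2 was highest in replicate 3 at 88.0 CPM (72.8 to 75.3 CPM) and Gstt3 in replicate 1 at 113 CPM (89.3 to 90.9 CPM). Sult5a1 in skin replicate 2 was highest at 106 CPM (71.9 to 76.0 CPM).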

How the results depend on the processing

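Of 308 counts of genes recomputed under the alternatives, 279 stayed within 1.5 times the reported count and 29 moved. Blood (2 higher) gave 5 with no filter and 0 with close copies summed. Heart (9) gave 4 with library totals. Inguinal lymph node (1) gave 0 with copies summed, 2 with library totals and 3 with no fold threshold. Spleen (1) gave 0 with copies summed and 0 to 1 with 1 replicate left out. Thymus (1) gave 0 with DESeq2 size factors, 0 without the 4 libraries in doubt (liver 4, brain 3, female reproductive tract 3 and 4), 4 with no filter, 0 with copies summed, 3 with library totals, 2 with no fold threshold and 0 to 1 with 1 replicate left out. Liver below kidney (5) gave 8 with library totals and 9 with no fold threshold. Small intestine above colon (7) gave 14 within the fit of all 60 libraries, 12 with no filter, 14 with no fold threshold and 6 to 12 with 1 library left out. Small intestine below colon (2) gave 5 with library totals, 5 with no fold threshold and 2 to 4 with 1 library left out. The cause was not tested.

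With the replicate number as a block, blood gave 4 and thymus 2, and no other count moved by over 1.5 times. Same-numbered libraries had a median correlation of 0.016 in their deviations from the tissue means, and other libraries -0.006. Pairing was set to need 0.1, so the numbers were not taken as pairs. In liver and kidney, same-numbered correlations were 0.020 to 0.055, and those with another number at most 0.0024. In kidney and small intestine each replicate also correlated most with its own number. For small intestine with liver or colon, this held for replicates 1 and 3 but not 2 and 4. Sharing of a mouse was not otherwise tested.

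Of 104 calls on these genes in the 4 pairs, 9 were lost under an alternative that tested the gene. With library totals these were Sult1d1 in kidney against small intestine, Gstk1, Gsto1 and Gstp1 in liver against kidney, and Gstk1, Gstm2 and Gstt2 in liver against small intestine. The other 2 were Gsta1 with copies summed. Ugt2b36 was not tested in small intestine against colon without small intestine replicate 1, 2 or 4. Genes that became higher or lower only under an alternative are not among these 9. Gsta1 reversed in kidney against small intestine to a log2 fold change of 2.80 with copies summed, since it then stands for Gsta1 and Gsta2 together, and in liver against small intestine was -0.40 and not called. Counting error limits genes with few reads, and 20 genes were not tested.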
